A study of Homo sapiens with 6 samples.

Results

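The genes described here are the well-expressed ZNF genes of DU145 cells, an established line of castration-resistant prostate cancer. They were taken as gene symbols made of ZNF, a number and at most 1 further letter, with a mean of at least 3 TPM over the 6 samples. TPM divides the reads of each gene by its length and sets the total of each sample to 1000000. Of 25528 gene symbols in the deposited table, 533 had a ZNF symbol of this form and 162 of these reached the minimum. A further 190 had a mean from 1 to under 3 TPM, 146 were above 0 and under 1 TPM, and 35 were at 0 in all 6 samples. The members were thus chosen by their mean level over both groups, so the levels are given as a description. Just inside it were ZNF717 (3.01 TPM), ZNF576 (3.04 TPM) and ZNF417 (3.07 TPM), and just outside it were ZNF620 (2.99 TPM), ZNF449 (2.98 TPM) and ZNF641 (2.97 TPM).

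All samples were DU145/tet-XISTshRNA cells, which carry a doxycycline-inducible short hairpin RNA against the long noncoding RNA XIST and were drug-selected after transduction. The comparison asks which transcripts differ when the hairpin is induced, between 3 vehicle samples (0.1% DMSO) and 3 samples given 500 ng/ml doxycycline (DOX) for 7 days. No sample with a control hairpin and DOX was analysed here, so effects of DOX and of the hairpin cannot be told apart. The labels describe triplicate cultures, and the p-values rest on the spread within groups of 3 samples of 1 line. Limma shares this spread between genes, so a p-value reflects only in part the gene's own samples.

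Most ZNF genes encode proteins with C2H2 zinc fingers, in which a pair of cysteines and a pair of histidines hold a zinc ion and a short helix reads the bases of DNA. Many ZNF proteins also carry a KRAB domain at the start of the protein. KRAB binds the scaffold protein TRIM28, which brings the histone H3K9 methyltransferase SETDB1 and HP1 proteins to the bound site, and KRAB zinc finger proteins are known for silencing retroelements. Other ZNF proteins without KRAB activate transcription, bind RNA or act in ribosome quality control, and many KRAB members lie in clusters on chromosome 19 that arose by tandem duplication.

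The finger sequences below are shown because members with the most negative and the most positive differences between DOX and vehicle had exonic sequence of different base composition. Each line is the first finger with a regular spacing in the canonical transcript of GENCODE release 44 (GRCh38), written 5′ to 3′ on the coding strand over 63 bases, with the codons of the 2 cysteines and 2 histidines in capitals. Members on chromosomes 8 and 18 were left out of this choice. The first 4 are from the members with the most negative values that hold such a finger in 1 exon, namely ZNF292 at chr6:87255340-87255402 (plus strand, 38.1% GC), ZNF518A at chr10:96156776-96156838 (plus strand, 36.5% GC), ZNF483 at chr9:111542256-111542318 (plus strand, 46.0% GC) and ZNF281 at chr1:200408857-200408919 (minus strand, 49.2% GC).
ZNF292: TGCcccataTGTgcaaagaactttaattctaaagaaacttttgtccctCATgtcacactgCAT
ZNF518A: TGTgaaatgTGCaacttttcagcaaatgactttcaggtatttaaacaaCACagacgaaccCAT
ZNF483: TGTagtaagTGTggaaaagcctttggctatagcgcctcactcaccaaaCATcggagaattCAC
ZNF281: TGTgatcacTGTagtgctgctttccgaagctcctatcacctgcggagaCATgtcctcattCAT
The next 4 are from the members with the most positive values that hold one, among which ZNF689 is named for this reason only, namely ZNF777 at chr7:149432568-149432630 (minus strand, 57.1% GC), ZNF787 at chr19:56088908-56088970 (minus strand, 61.9% GC), ZNF576 at chr19:43598962-43599024 (plus strand, 65.1% GC) and ZNF689 at chr16:30605170-30605232 (minus strand, 65.1% GC).
ZNF777: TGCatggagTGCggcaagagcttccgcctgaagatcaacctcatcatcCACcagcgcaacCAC
ZNF787: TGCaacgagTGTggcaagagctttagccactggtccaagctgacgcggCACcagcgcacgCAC
ZNF576: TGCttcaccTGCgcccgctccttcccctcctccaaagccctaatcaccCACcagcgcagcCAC
ZNF689: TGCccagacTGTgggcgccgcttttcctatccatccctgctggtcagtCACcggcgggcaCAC
All 8 stretches encode a zinc finger with the same spacing, and they lie in exons of coding sequence. The 39 bases that matched the KRAB pattern also differed in composition among the 3 of these members that hold one, namely ZNF483 at chr9:111533751-111533789 (plus strand, 43.6% GC), ZNF777 at chr7:149454187-149454225 (minus strand, 51.3% GC) and ZNF689 at chr16:30609913-30609951 (minus strand, 64.1% GC).
ZNF483: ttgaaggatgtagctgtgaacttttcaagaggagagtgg
ZNF777: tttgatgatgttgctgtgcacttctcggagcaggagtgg
ZNF689: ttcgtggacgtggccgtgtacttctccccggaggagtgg

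The study's whole data set bears on these genes in a few ways. XIST was listed at 0 in all 6 samples, as was EIF4A1, a translation initiation factor of all cells, so the targeted RNA could not be measured from these values. Reads recovered from the TPM ran from 5453699 in vehicle replicate 3 to 64572975 in DOX replicate 1, and 5 small RNAs held from 67.5% of the TPM in vehicle replicate 3 to 82.6% in DOX replicate 1. TPM has a fixed total, so a gene is measured relative to the rest of its library. The log2 fold changes of all 11672 genes tested had a median of -0.35 on the TPM scale and 0.02 after the samples were scaled by the median of ratios. Epithelial markers KRT8, KRT18, KRT19, EPCAM and CDH1 were present at means of 9.12 to 98.1 TPM. Among luminal prostate markers, KLK3 and HOXB13 were at 0, and KLK2 and TMPRSS2 were under 0.05 TPM in every sample. Of 5 markers of other cell types, COL1A2 was at 0, PTPRC, PECAM1 and COL1A1 had means of 0.0028 to 0.432 TPM, and CD68 had 14.6 TPM.

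Levels of the 162 members covered a wide range, and most were low. The mean over the 6 samples had a median of 4.94 TPM and quartiles of 3.88 and 7.94 TPM. There were 82 members under 5 TPM, 25 at 10 TPM or more and 9 at 20 TPM or more. ZNF207, which encodes the kinetochore and spindle protein BuGZ, was highest with a mean of 102.7 TPM. It was followed by ZNF664 (48.98 TPM), the SCAN-domain factor ZNF24 (48.2 TPM), ZNF217 (44.8 TPM), a factor amplified in several carcinomas, ZNF770 (30.7 TPM) and ZNF121 (26.7 TPM). ZNF664, ZNF24 and ZNF217 overlapped in their sample values and their order is not resolved. In vehicle-treated cells ZNF207 had 122 ± 42.0 TPM (SD, n = 3), and in DOX-treated cells 83.7 ± 21.5 TPM (SD, n = 3), with a log2 fold change of -0.52 (standard error 0.29) on the log2(TPM + 1) scale that did not pass limma's test (adjusted p = 0.213).

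KRAB-type members were low as a rule. A KRAB stretch was matched in the translated sequence of 70 members and not in 90, and 2 members, ZNF252P and ZNF271P, are pseudogenes with no translation. The median level was 4.18 TPM with a KRAB match and 7.04 TPM without. Of the 70 KRAB members, 1 reached 10 TPM (ZNF562, 10.3 TPM), against 23 of the 90 without. KRAB members had a median of 12 fingers and the others 7, with a maximum of 36 in ZNF142. Chromosome 19 held 48 members, of which 37 had a KRAB match and 11 did not. ZNF185, ZNF330 and ZNF503 were the 3 members in which no finger of the pattern was found, and 6 members carried a SCAN domain.

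On the TPM scale nearly all ZNF members, like nearly all genes, had lower values with DOX, and few of them passed the test for a single gene. In bulk samples a lower level per cell and fewer cells with a high level cannot be told apart. Of the 162 members, 157 had a negative and 5 a positive log2 fold change, with a median of -0.48 and a range from -0.98 to 0.23. The negative values made up 96.9% of members, beside 93.1% of all genes tested and 93.9% of those at 3 TPM or more. Limma with Benjamini-Hochberg adjustment over all genes tested called 8 members lower and 0 higher, a call being a fold change over 1.5 with an adjusted p-value under 0.05. That is 4.94% of members, where 2.98% of all genes tested were called lower and 0.0257% higher. The 8899 genes that also reached 3 TPM had a median of -0.38, and 2.78% were called lower. Under the looser rule of the same fold change with an unadjusted p-value under 0.05, 61 members were lower and 0 higher, beside 19% and 0.12% of all genes. Of the 8899 genes at 3 TPM or more, 1954 were lower under this rule. A further 17 members had an adjusted p-value from 0.05 to 0.06, and the lowest among members was 0.0343, so the count of 8 sits on the edge of the cut-off. Once the replicate number was added to the fit as a block, 61 members were called lower and 0 higher (37.7%), and the 8 members were among these 61. Of all genes 19% were called lower and 0.129% higher, and of those at 3 TPM or more 22.0% were called lower. In the block fit limma's p-values rested on a variance pooled over genes. At any fold change 85 members were lower with an adjusted p-value under 0.05, beside 3971 of the 11672 genes tested. The fold cut-off thus set the count of 61, which is not stronger evidence for a single gene. For 70 members (43.2%) every DOX sample was below every vehicle sample and for 0 above, beside 30.7% and 0.223% of all genes.

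The 8 called members were ZNF292, ZNF518A, ZNF483, ZNF91 and ZNF782, which are among the 10 most negative values, and ZNF780B, ZNF605 and ZNF721, which are named because they were called, after their values were seen. On GRCh38 they are annotated as ZNF292 at chr6:87151803-87265943, ZNF518A at chr10:96129715-96205288, ZNF483 at chr9:111525159-111577844, ZNF91 at chr19:23304991-23395471, ZNF782 at chr9:96816269-96875623, ZNF780B at chr19:40028260-40056231, ZNF605 at chr12:132918306-132956306 and ZNF721 at chr4:425815-499156. ZNF292, a large factor described as a candidate tumour suppressor, had 5.71, 7.17 and 9.09 TPM under vehicle (replicates 1, 2 and 3, the order used throughout) and 1.83, 5.02 and 3.27 TPM under DOX. The groups did not overlap, and the lowest value was that of DOX replicate 1. On the log2 scale it differed by -0.98 (standard error 0.25, limma adjusted p = 0.0349). ZNF91, a KRAB protein with 31 fingers that represses SVA retroelements, had 4.17, 4.92 and 5.95 TPM under vehicle and 1.36, 3.52 and 2.02 TPM under DOX. Its groups were also apart, with a log2 fold change of -0.91 (standard error 0.23, limma adjusted p = 0.0343). ZNF518A, a C2H2 protein linked to the G9a methyltransferase, had 8.66, 11.2 and 13.4 TPM under vehicle and 3.23, 8.21 and 5.39 TPM under DOX. It fell by 0.92 on the log2 scale (limma adjusted p = 0.0471), again without overlap. ZNF483, which carries both a SCAN and a KRAB domain, had 4.08, 5.42 and 7.25 TPM under vehicle and 1.45, 3.91 and 2.33 TPM under DOX (limma adjusted p = 0.0387). In ZNF782, a KRAB member, the groups overlapped, since DOX replicate 2 (3.73 TPM) lay above vehicle replicate 1 (3.14 TPM). Its adjusted p-value was 0.0472 from limma. ZNF780B, ZNF605 and ZNF721 had log2 fold changes of -0.83, -0.83 and -0.82, with groups that did not overlap. In each of the 8 members DOX replicate 1 had the lowest value and vehicle replicate 3 the highest.

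**Figure D1:**
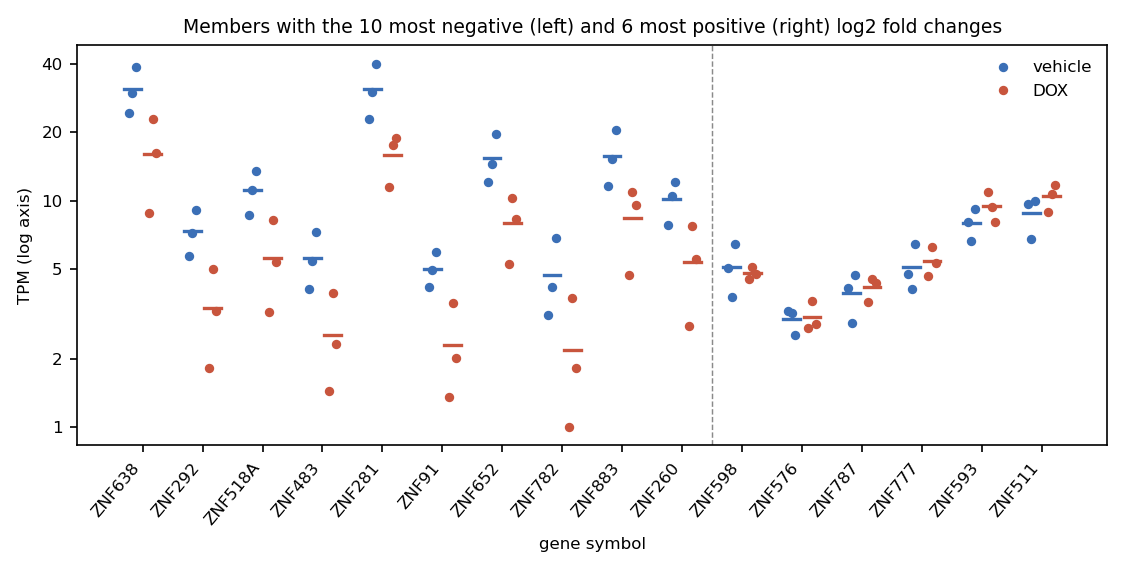
TPM on a log axis of the 10 members with the most negative and the 6 with the most positive log2 fold changes; each point is 1 sample, horizontal bars are the means of the 3 vehicle (blue) and 3 DOX (red) samples. On the left the DOX means lie below the vehicle means and on the right the groups overlap in all 6 members.

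The most negative value among members was that of ZNF638, which missed the threshold. ZNF638 encodes NP220, a protein that recruits the HUSH silencing complex to unintegrated retroviral DNA. It had 24.3, 29.9 and 38.9 TPM in the vehicle samples and 8.86, 23.0 and 16.2 TPM in the DOX samples, with no overlap and a log2 fold change of -0.98 (standard error 0.29, limma adjusted p = 0.0506). With the replicate block the adjusted p-value was 7.71e-05. ZNF281, a factor of GC-rich promoters that acts in stem cells, had 23.0, 30.2 and 40.2 TPM under vehicle and 11.4, 17.5 and 18.98 TPM under DOX (limma adjusted p = 0.0528). ZNF652 had 15.4 ± 3.88 TPM under vehicle and 7.94 ± 2.52 TPM under DOX (SD, n = 3 each; limma adjusted p = 0.0506). ZNF883 and ZNF260 complete the 10 most negative values, at -0.87 each. In 9 of these 10 the groups did not overlap, ZNF782 being the exception, and with the replicate block all 10 were called lower.

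None of the 6 most positive members passed the test on the TPM scale. ZNF511 had 9.65, 6.79 and 9.96 TPM under vehicle and 8.90, 10.7 and 11.8 TPM under DOX, with a log2 fold change of 0.23 (standard error 0.25, limma adjusted p = 0.498). ZNF593, a ribosome biogenesis factor, had 8.09, 6.66 and 9.20 TPM under vehicle and 10.96, 9.36 and 8.04 TPM under DOX. ZNF593 was the single member with its highest value in DOX replicate 1, the sample in which most members were lowest. ZNF777, ZNF787 and ZNF576 had log2 fold changes of 0.09, 0.08 and 0.02, and ZNF598, a ubiquitin ligase that senses collided ribosomes, had -0.05. Groups overlapped in all 6.

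The extremes of most members came from 2 samples. DOX replicate 1 was the lowest of the 6 samples for 141 of 162 members, and vehicle replicate 3 was the highest for 142. The summed TPM of the members was 1281, 1471 and 1862 under vehicle and 737, 1256 and 1096 under DOX, replicate by replicate. These 2 samples also had the fewest and the most reads and the smallest and the largest share of small RNAs, and the part of depth and of that share in the members' differences was not tested. Without both samples, the median of the members was -0.19, the median of all genes was -0.12 and 0 members passed even the looser rule, beside 2.02% of all genes lower. Without DOX replicate 2, 71 members were called lower (20.2% of all genes), and without vehicle replicate 1, 44 (10.8% of all genes). With a minimum mean of 3 TPM for testing 42 were called lower (10.2% of the genes then tested), and with a pseudocount of 0.1 there were 0 (0.394% of all genes). Leaving out any other single sample left 0. In vehicle replicate 3 the members had a median of 179 reads and at least 19, and in DOX replicate 1 a median of 1985, so counting error is largest in vehicle replicate 3.

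**Figure D2:**
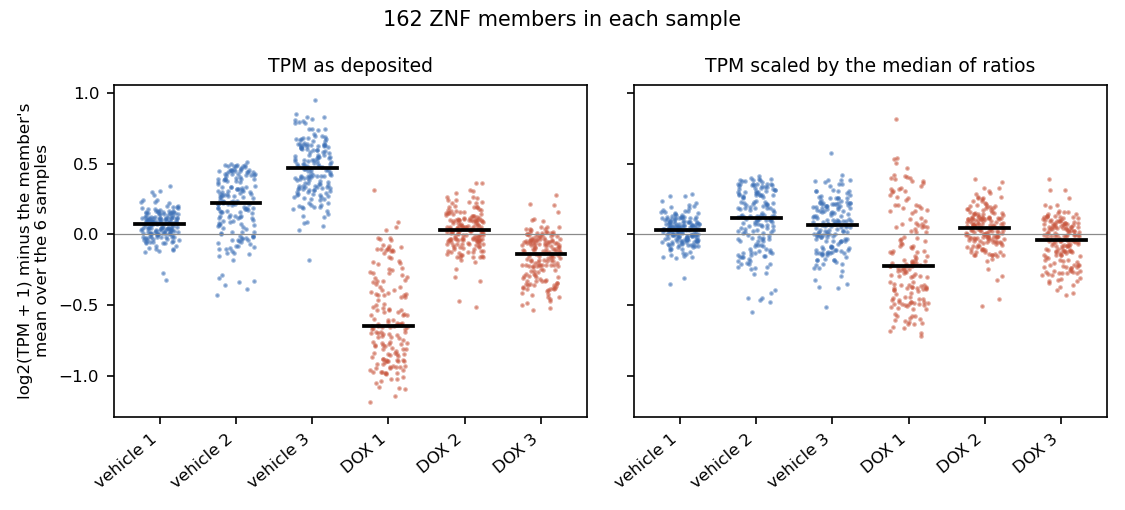
Log2(TPM + 1) of each of the 162 members in each sample, relative to the mean of that member over the 6 samples, on the TPM scale (left) and after median-of-ratios scaling (right); black bars are medians. On the left DOX replicate 1 sits lowest and vehicle replicate 3 highest, and on the right the medians lie closer together, with DOX replicate 1 still lowest.

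The numbered samples were also compared in pairs. The median difference of members on the log2(TPM + 1) scale, DOX minus vehicle, was -0.70 for replicate 1, -0.18 for replicate 2 and -0.59 for replicate 3, beside -0.47, -0.11 and -0.49 for all genes. In replicates 1, 2 and 3, 159, 131 and 158 members were lower with DOX (98.1%, 80.9% and 97.5%), beside 95.9%, 64.7% and 93.2% of all genes. In 127 members (78.4%) the DOX value was lower in all 3 pairs, as it was for 61.2% of all genes.

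When the samples were scaled by the median of ratios, which centres each sample on its typical gene, members stayed below the median of all genes but the single-gene calls were lost. The median of members was -0.13, beside 0.02 for all genes, with 108 members negative (66.7%) and 54 positive, where 47.4% of all genes were negative. Limma called 0 members lower and 0 higher, and under the looser rule 1 was lower and 2 were higher, beside 1.14% and 1.17% of all genes. Groups did not overlap for 27 members lower with DOX (16.7%) and 12 higher (7.41%), beside 9.22% and 10.8% of all genes. In 70 members (43.2%) the DOX value was lower in all 3 pairs, beside 24.6% of all genes. DOX replicate 1 remained the lowest sample for 95 members, but it was the highest for 40, where on the TPM scale it was the highest for 1. ZNF292 had the most negative value on this scale, -0.62 (limma adjusted p = 0.280), and ZNF511 the most positive, 0.64 (limma adjusted p = 0.267).

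**Figure D3:**
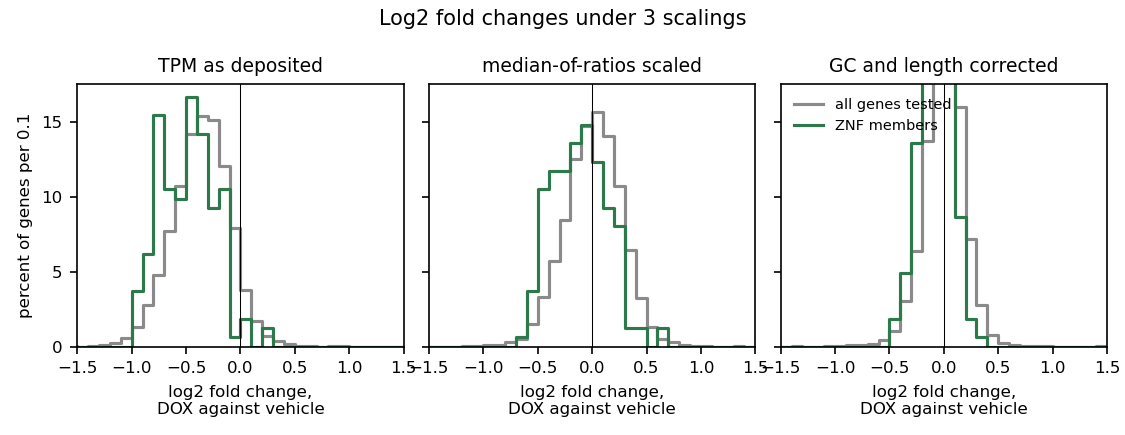
Percent of genes per 0.1 of log2 fold change for the 162 members (green) and all genes tested (grey) on the TPM scale, after median-of-ratios scaling and after correction for GC content and length. The members' median is -0.48, -0.13 and -0.072 from left to right, beside -0.35, 0.02 and 0.01 for all genes.

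Limma voom on the recovered reads with the replicate block gave calls in both directions. It called 11 members lower and 3 higher, where 2.34% of all genes were called lower and 1.38% higher. Of the 8 members called on the TPM scale 7 were among these 11, and the 11 were all among the 61 called with the block on TPM. The 3 called higher were ZNF511 (log2 fold change 0.64, adjusted p = 0.0308), ZNF593 (0.80, adjusted p = 0.0467) and ZNF777 (0.59, adjusted p = 0.0218). Without the block voom called 0 members in either direction. These fits centre on the typical gene, so the values of ZNF511, ZNF593 and ZNF777 are relative to it. A count of 3 in 162 is near the share of all genes called higher. The 3 members had 56.9 to 62.4% GC, and all genes tested at 55% GC and over had a median of 0.23 after median-of-ratios scaling. With a correction for GC content and length added, voom with the block called 0 members higher.

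The members' log2 fold changes followed the GC content of their transcripts. Over the 162 members, the Spearman correlation of log2 fold change with the GC content of the exonic sequence was 0.802, and over the 11196 tested genes with an annotation it was 0.722. These correlations are across genes of the same 6 libraries, and genes are not independent replicates. The 35 members under 40% GC had a median log2 fold change of -0.76, the 61 from 40 to 45% had -0.55, the 18 from 45 to 50% had -0.42, the 21 from 50 to 55% had -0.25 and the 27 at 55% and over had -0.17. The corresponding medians of all genes were -0.63, -0.48, -0.35, -0.25 and -0.13. All 35 members under 40% lay below the median of all genes, as did 58 of the 61 in the next bin, 12 of 18, 4 of 21 and 0 of 27 in the others. Of the 8 called members 6 were under 40% GC and 2 were from 40 to 45%, and their GC content ran from 37.6 to 43.1%. The 6 most positive members ran from 52.2 to 65.9%. Members had a median GC content of 44.01%, beside 46.99% for all genes, and a median exonic length of 6720 bases, beside 5472. The correlation with exonic length was -0.416 over the members and -0.337 over all genes. Without DOX replicate 1 the correlation with GC content was 0.627 over members and 0.461 over all genes, and without both DOX replicate 1 and vehicle replicate 3 it was 0.611 and 0.382.

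**Figure D4:**
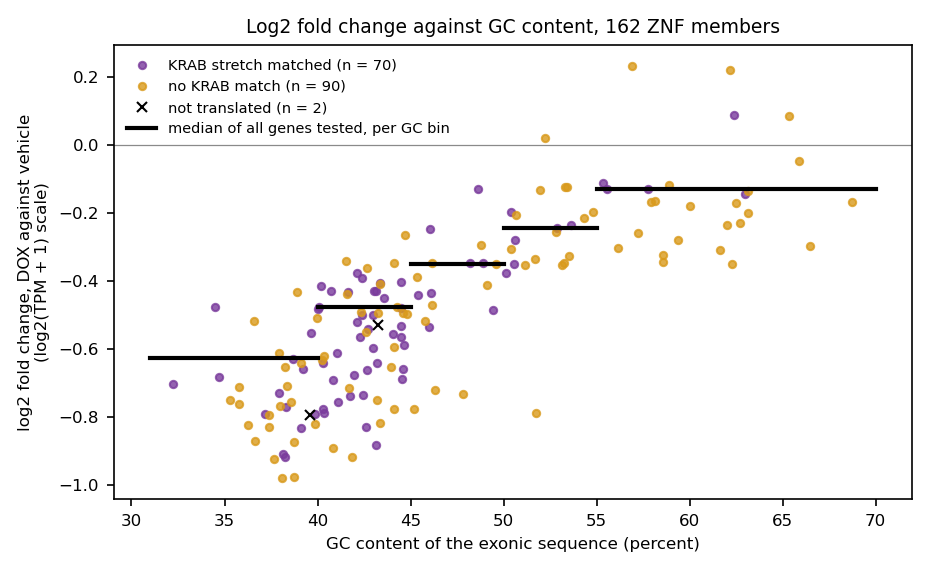
Log2 fold change (log2(TPM + 1) scale) of each of the 162 members against the GC content of its exonic sequence; purple points matched a KRAB stretch, orange points did not, crosses are the 2 members without translation, and black bars are the medians of all genes tested per GC bin. Members rise from a median of -0.76 under 40% GC to -0.17 at 55% and over, and the medians of all genes rise with them.

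After a spline correction for GC content and exonic length in each sample, which also centres each sample, the members' median was -0.072 and that of all genes 0.01. Limma then called 0 members, and 0 members passed the looser rule, where 0.554% of all genes were lower and 0.179% higher. The correlation with GC content was 0.141 over members after the correction, and 0.001 over all genes, which follows from the correction itself. Any difference between DOX and vehicle that follows GC content or length over all genes is removed with it. The lower correlation and the absence of calls therefore do not show where the differences came from. The most negative corrected values among the named members were ZNF782 (-0.44) and ZNF281 (-0.43, standard error 0.11, limma adjusted p = 0.320). ZNF207, at -0.52 on the TPM scale, was at 0.19 after the correction. Voom with the block and the correction called 0 members, and ZNF782 (-0.60), ZNF292 (-0.44) and ZNF91 (-0.44) kept the sign of their difference without passing the test.

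**Figure D5:**
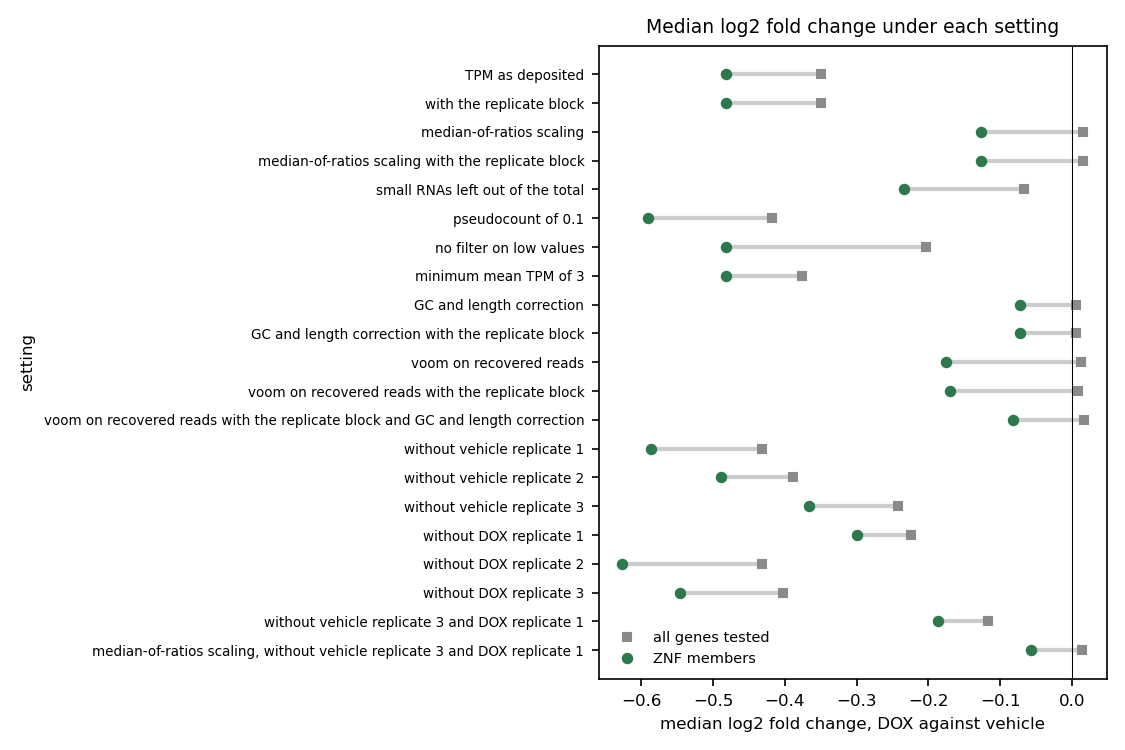
Median log2 fold change of the members (green circles) and of all genes tested (grey squares) under each setting. The members' median is below that of all genes in every setting shown, and both move toward 0 under median-of-ratios scaling, voom and the GC and length correction.

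KRAB members had a lower median than the other members on the TPM and median-of-ratios scales, and after correction for base composition the order depended on the fit. Log2 fold changes had a median of -0.53 for the 70 KRAB members and -0.41 for the 90 others. Limma called 5 and 3 of them lower (7.14% and 3.33%), beside 2.98% of all genes tested. On the median-of-ratios scale the medians were -0.18 and -0.02. The KRAB members had a median GC content of 42.8% and the others 45.6%, and after the GC and length correction the medians were -0.06 and -0.07. With voom, the block and the correction they were -0.12 and -0.07. Members with 10 or more fingers (74) had a median of -0.54, and members with 1 to 9 fingers (83) had -0.41. Of these, 7 and 1 were called lower (9.46% and 1.20%), beside 2.98% of all genes tested. Both splits divide the same called members, whose adjusted p-values lie near the cut-off. Members with 10 or more fingers had a median GC content of 42.6% and those with 1 to 9 fingers 44.7%. After the correction members with 10 or more fingers stayed lower, with medians of -0.08 and -0.05, or -0.13 and -0.06 with voom, the block and the correction. Chromosome 19 members had a median of -0.51 and those on other chromosomes -0.48. These sub-groups are described without a test of their difference.

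Of 31 ZNF genes listed for a known role, 26 were members, and limma called 3 of these lower (ZNF292, ZNF518A and ZNF91) and 0 higher, where 2.98% of all genes were called lower. With the replicate block 13 were called lower and 0 higher, beside 19% of all genes and 22.0% of those at 3 TPM or more lower. On the median-of-ratios scale 15 were negative and 11 positive, beside 47.4% of all genes negative. Among partners of chromatin and RNA machineries, ZNF451, a SUMO ligase, had 10.7 ± 2.41 TPM under vehicle and 5.73 ± 2.14 TPM under DOX (SD, n = 3 each) and a limma adjusted p of 0.0568, or 0.000615 with the replicate block. ZNF644, a partner of the G9a and GLP methyltransferases, had 18.6 ± 3.99 and 10.9 ± 4.20 TPM (limma adjusted p = 0.0795), and its groups overlapped. ZNF326, of the DBIRD complex that links transcript elongation to splicing, had a log2 fold change of -0.71 (limma adjusted p = 0.0646). ZNF148, a factor of GC-rich promoters, had 6.19, 7.98 and 8.35 TPM under vehicle and 2.46, 5.89 and 3.88 TPM under DOX, without overlap (limma adjusted p = 0.0568). The KRAB members ZNF268 and ZNF224 had log2 fold changes of -0.68 and -0.61.

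Other members with known roles were near the median of the members or above it. ZNF143, which binds promoters and takes part in chromatin looping, was at -0.49. ZNF274, the KRAB protein that brings SETDB1 to ZNF genes themselves, had 4.17, 3.41 and 4.14 TPM under vehicle and 2.56, 3.63 and 3.28 TPM under DOX, with overlap and a log2 fold change of -0.24 (limma adjusted p = 0.412). ZNF410, an activator of the chromatin remodeller gene CHD4, was at -0.27, and CHD4 itself at -0.23. ZNF687, ZNF592 and ZNF532, whose proteins form a complex, were at -0.17, -0.13 and -0.35. ZNF384, ZNF395, ZNF622, a ribosome biogenesis factor, and ZNF346, which binds double-stranded RNA, were at -0.33, -0.20, -0.35 and -0.35. None of these members passed the test on the TPM scale without a block, and ZNF274, ZNF410, ZNF687, ZNF592, ZNF532, ZNF384, ZNF395, ZNF622 and ZNF346 had positive values of 0.0027 to 0.26 after median-of-ratios scaling.

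The partners through which KRAB proteins act had values spread over the same range. Of 28 listed co-repressor genes found in the table, 27 were tested and EHMT2 was under the minimum of 1 TPM. Limma called 0 lower and 0 higher, with 8 lower and 0 higher under the looser rule, beside 19% of all genes lower, and a median of -0.41. TRIM28, the scaffold bound by KRAB, had 29.1, 25.7 and 44.7 TPM under vehicle and 28.7, 31.6 and 24.6 TPM under DOX, with overlap and a log2 fold change of -0.19 (standard error 0.27, limma adjusted p = 0.619). SETDB1 was at -0.35 (limma adjusted p = 0.302). With the replicate block 8 (29.6%) were called lower, beside 19% of all genes and 22.0% of those at 3 TPM or more. The 8 were SMARCAD1, FAM208A, TRIM33, ATF7IP, MPHOSPH8, CBX5, TRIM24 and CBX3. On the median-of-ratios scale the median of the 27 was 0.01. TRIM28 had 62.5% GC and SMARCAD1, with the most negative value of the list at -0.98 (limma adjusted p = 0.0516), had 37.6% GC.

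The genes most like the members are other C2H2 genes. The 190 ZNF symbols from 1 to under 3 TPM had a median log2 fold change of -0.36 with 3 called lower (1.58%), on a scale on which a pseudocount of 1 understates the change of low genes. The 77 tested genes of the ZBTB, ZKSCAN, ZSCAN, ZFP and KLF families had a median of -0.41 with 3 called lower (3.90%). On the median-of-ratios scale the medians were -0.10 for the ZNF symbols of lower level and -0.08 for the other families, beside -0.13 for the members. With the replicate block 17 of the 190 (8.95%) and 22 of the 77 (28.6%) were called lower. The share was 19% of all genes and 22.0% of those at 3 TPM or more. The 190 all lie at low levels, where the pseudocount holds down such counts, so their share cannot be ranked against that of all genes.

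Near-identical sequence and overlapping genes limit the values of some members. The share of 50-base words of a member's canonical transcript that also occur in genes not overlapping it was over 10% in 11 members, led by ZNF286A (57.8%) and ZNF417 (36.1%), and was 0 in 71. Reads of such members may be split between copies, and their values are uncertain. A gene on the opposite strand overlapped 75 members and one on the same strand 40, and the strand setting of the authors' counting is not given in the sources used here. In the 8 called members at most 6.9% of the words were shared. Words shared with overlapping genes were not counted in these shares.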

How the data were processed

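The authors isolated total RNA from triplicate cultures, made stranded mRNA libraries, used STAR to align reads to GRCh38 and deposited TPM per gene symbol. The paper names Trizol for isolation and the labels name a column kit. Tool versions, the counter and its strand option are not given in the sources used here. The authors also deposited a DESeq2 table whose column of mean normalized counts, a signal over all samples, was used only to recover reads. Its fold changes, scores and p-values were not used. No count per sample was used as deposited.

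Samples were grouped by their titles. DOX was compared with vehicle by limma 3.58.1 (R 4.3.3) with a variance trend on log2(TPM + 1), over the 11672 genes with a mean of at least 1 TPM, with Benjamini-Hochberg adjustment and calls at a fold change over 1.5 with an adjusted p-value under 0.05. Whole reads were recovered from TPM and the mean normalized counts, and 97.99% of low values (under 50 reads) came out whole within 0.05 reads, where chance gives 10%. Alternatives were the replicate block, median-of-ratios scaling, another pseudocount and filter, voom on recovered reads, spline correction (5 degrees of freedom) for GC content and exonic length, and leaving out samples. Same-numbered vehicle and DOX samples deviated together from their group means, with r of 0.57, 0.24 and 0.21 across genes for replicates 1, 2 and 3 (0.19, -0.004 and 0.17 after the correction), and the pairing rests on these correlations alone. Annotation came from GENCODE release 44 (GRCh38), which matched 162 of 162 members and 95.9% of tested genes. KRAB, SCAN and finger patterns were searched in translations of canonical GENCODE transcripts. The KRAB pattern was widened after looking at protein sequences (51 members matched before and 70 after). The steps were tested on simulated data. Python 3.11.15, pandas 2.3.3, SciPy 1.17.1 and matplotlib 3.10.9 were used.

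The members and the gene lists were chosen with earlier results of these data known. Members were named by a rule, namely the 6 with the highest level, the 10 most negative and 6 most positive log2 fold changes, those in a list of known roles, those beside the minimum and any called higher. The co-repressors TRIM28 and SETDB1 and any others called were named too. Some luminal prostate markers that were looked at are not reported here.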

Additional observations from a re-analysis of the deposited data

How the results depend on the processing

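The 8 members called lower on TPM became 61 with the replicate block, 11 with voom and the block, 42 with a minimum mean of 3 TPM and 0 with median-of-ratios scaling (with or without the block), with the small RNAs left out of the total, with a pseudocount of 0.1, with no filter, with the GC and length correction (with or without the block), with voom, with voom, block and correction, and without vehicle replicate 3 and DOX replicate 1 together on either scale. Leaving out 1 sample gave 0 to 71. The 0 members called higher became 3 with voom and the block. For all genes, the 348 called lower became 2217 with the block, 46 with the pseudocount of 0.1, 908 with the minimum of 3 TPM, 1 with voom, 273 with voom and the block, 5 with voom, block and correction, 9 without both samples, 1 without both on the median-of-ratios scale, 0 under the other settings named, and 0 to 2363 without 1 sample. The 3 called higher became 15 with the block, 6 with the minimum of 3 TPM, 161 with voom and the block, 0 under median-of-ratios scaling, small RNAs left out, no filter, the correction, voom alone, and voom with block and correction, and 0 to 25 without 1 sample. The cause of these changes was not tested.

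The members' median of -0.48 moved to -0.13 under median-of-ratios scaling, -0.23 with the small RNAs left out, -0.072 with the correction, -0.18 with voom, -0.17 with voom and the block, -0.083 with voom, block and correction, -0.19 without vehicle replicate 3 and DOX replicate 1, -0.057 without both on the median-of-ratios scale, and -0.63 to -0.30 without 1 sample. With a pseudocount of 0.1 it was -0.59. The distance of the members' median from that of all genes, -0.13, moved to -0.28 with no filter, -0.077 with the correction, -0.070 without both samples and -0.071 without both on the median-of-ratios scale, and was -0.20 to -0.076 without 1 sample. The distance was also wider with the pseudocount of 0.1, the small RNAs left out, voom, and voom with the block. There the median of all genes was -0.42, -0.067, 0.013 and 0.0087. The correlation with GC content moved from 0.802 to 0.141 with the correction, 0.273 with voom, block and correction, 0.611 without both samples and 0.603 without both after scaling, and was 0.627 to 0.833 without 1 sample.

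Named members that turned positive under median-of-ratios scaling, with or without the block, were ZNF274 (0.099), ZNF346 (0.0027), ZNF384 (0.079), ZNF395 (0.20), ZNF410 (0.14), ZNF532 (0.030), ZNF592 (0.26), ZNF598 (0.33), ZNF622 (0.042) and ZNF687 (0.23). With voom they were ZNF274 (0.097), ZNF346 (0.0052), ZNF384 (0.068), ZNF395 (0.20), ZNF410 (0.14), ZNF532 (0.029), ZNF592 (0.30), ZNF598 (0.45), ZNF622 (0.049) and ZNF687 (0.25), and with voom and the block ZNF274 (0.069), ZNF346 (0.0020), ZNF384 (0.064), ZNF395 (0.20), ZNF410 (0.13), ZNF532 (0.014), ZNF592 (0.30), ZNF598 (0.43), ZNF622 (0.062) and ZNF687 (0.25). With the small RNAs left out they were ZNF274 (0.037), ZNF395 (0.13), ZNF410 (0.060), ZNF592 (0.20), ZNF598 (0.29) and ZNF687 (0.17). With the GC and length correction, with or without the block, they were ZNF207 (0.19), ZNF274 (0.040), ZNF395 (0.023), ZNF410 (0.16), ZNF532 (0.088), ZNF592 (0.17), ZNF598 (0.0043) and ZNF687 (0.012), and with voom, block and correction ZNF121 (0.033), ZNF207 (0.30), ZNF24 (0.0092), ZNF395 (0.033), ZNF410 (0.22), ZNF532 (0.098), ZNF592 (0.22), ZNF598 (0.036) and ZNF687 (0.036). Without vehicle replicate 3 and DOX replicate 1, ZNF576 was at -0.0059, ZNF592 at 0.053 and ZNF598 at 0.15, and on the median-of-ratios scale without both ZNF121 (0.015), ZNF207 (0.14), ZNF274 (0.021), ZNF384 (0.028), ZNF410 (0.14), ZNF532 (0.033), ZNF592 (0.19), ZNF598 (0.28), ZNF622 (0.016) and ZNF687 (0.0002) were positive. Without 1 sample, ZNF576 ran from -0.069 to 0.077, ZNF592 from -0.22 to 0.0016, ZNF598 from -0.21 to 0.11, ZNF777 from -0.032 to 0.24 and ZNF787 from -0.074 to 0.20. None of these members was called on the TPM scale with all 6 samples and no block. With 1 sample left out, ZNF121 and ZNF24 reached limma adjusted p-values as low as 0.0387 and 0.0378. The setting without both samples was chosen after seeing the data. Precision is limited by vehicle replicate 3, in which the least covered member had 19 reads.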

Other observations

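The start sites of the members were examined in the promoter windows of RefSeq on GRCh38.p14, which run from 250 bases before to 50 bases after the start of each gene. A window was found for 141 of the 162 members, for 8880 tested genes and for 27305 genes in all. The letters CCGGAAG, a core that ETS-family factors bind, occurred on either strand in 39.7% of the members' windows, beside 20.8% of those of tested genes and 10.7% of all windows. ACTACAA, a run within the ZNF143 motif, occurred in 8.5%, beside 3.9% and 3.0%. The GC box GGGCGG occurred in 64.5%, beside 71.7% and 44.6%, and TATAAA in 2.8%, beside 5.1% and 12%. None of these motifs contains another. A match describes letters in a window and was not tested as a site. The members' windows had a median GC content of 62.7%, beside 65.7% for tested genes and 58.3% for all. The log2 fold change of the members had a Spearman correlation of 0.282 with the GC content of the window, where it was 0.802 with that of the exonic sequence over all 162 members, and the 2 GC contents had a correlation of 0.361 with each other over the 141 members. These correlations are across genes of the same 6 libraries.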
